A study of Mus musculus with 12 samples.

Results

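Mouse macrophages grown from bone marrow (BMDMs) and given IL-4 as the only treatment were compared with untreated BMDMs of the same mice, across all genes with enough reads to test. The members were chosen by label alone: the 3 RNA-seq libraries of cells given IL-4 and the 3 libraries of untreated cells, which are 6 of the 12 libraries of the series. Of the 48526 genes in the count table, 21677 had at least 1 count in these 6 libraries, and 12008 had at least 10 counts in at least 3 of them and were tested. BMDMs are grown in a dish from whole bone marrow in medium with macrophage colony-stimulating factor (mCSF), which all groups received.

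The cells came from 3 female C57Bl/6J mice, which carry no engineered allele according to the labels, and each mouse gave 1 untreated and 1 IL-4-treated library. On day 7 of culture (the study's methods give a range of days for BMDM experiments), cells were held for 16 hr in medium alone or in medium with 100 pg/mL IL-4. The other 6 libraries of the series received Wnt3a, with or without IL-4, and are not described here. The labels give no age for these mice, and the study's methods give only a range of weeks for its marrow donors. A culture from a whole marrow can hold cells other than macrophages, and reads per gene cannot tell fewer cells of a type from less RNA per cell.

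IL-4 is a cytokine of type 2 immunity. It binds the IL-4 receptor α chain together with the common γ chain or the IL-13 receptor α1 chain, whose Janus kinases phosphorylate STAT6, a transcription factor that then binds DNA as a dimer. In mouse macrophages this pathway is known for a state called alternative activation, with secreted proteins such as RELMα (*Retnla*) and Ym1 (*Chil3*), the mannose receptor (*Mrc1*) and arginase 1 (*Arg1*).

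Total counts ranged from 13342492 to 17113982 per library, between 16844 and 17989 genes had at least 1 count, and mitochondrial genes held from 0.504% to 0.898% of the counts. Values below are CPM, the reads of a gene per 1000000 reads of its library after TMM scaling. A value of 1 count was 0.0557 to 0.0743 CPM, and 3 counts were taken as the floor of detection, which covers counting error only. All 12 genes of a list of macrophage markers were measured in every group, among them *Lyz2* (lysozyme, a mean of 46470 CPM in untreated and 38833 CPM in IL-4-treated cells), *Csf1r* (the mCSF receptor, 5360 and 5748 CPM) and *Adgre1* (F4/80, 2504 and 2354 CPM). The cells therefore carried the markers of their label in both groups.

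The question was which genes change in BMDMs when IL-4 is added alone. IL-4 changed 325 of the 12008 genes (2.71%), with 237 higher (1.97%) and 88 lower (0.733%), by edgeR's quasi-likelihood test with the mouse as a block and an adjusted p under 0.05. Among the higher genes, 96 (40.5%) had a log2 fold change of at least 1 and 30 of at least 2, while 23 (26.1%) of the lower genes fell by at least 1 and 2 by at least 2. The median log2 fold change was 0.88 among the higher genes and -0.74 among the lower genes, and it was 0.002 over all 12008 genes. All 325 genes moved in the same direction in 3 of 3 mice, which is not independent support because the same mice gave the calls. In 322 of them the 3 IL-4 values and the 3 untreated values did not overlap, which also held for 20.6% of all genes tested. Together, the higher genes went from 19438 to 33349 CPM and the lower genes from 8240 to 5275 CPM, as sums of group means. The number and the balance of the calls changed when a mouse was left out. Each such fit had fewer residual df and its own variance estimates. Its adjusted p-values and counts are therefore not on 1 scale with those of all 3 mice. For the gene *Itgax*, the adjusted p was 1.0e-05 with all mice and 1.8e-81 without mouse 2 (edgeR). Without mouse 2, 570 genes were called and the balance turned over, with 269 higher and 301 lower (47.2% higher). Without mouse 1, 1025 were called (702 higher, 323 lower). Without mouse 3 only 65 were called, and these 65 genes (53 higher, 12 lower) were called in all 3 cases.

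**Figure D1:**
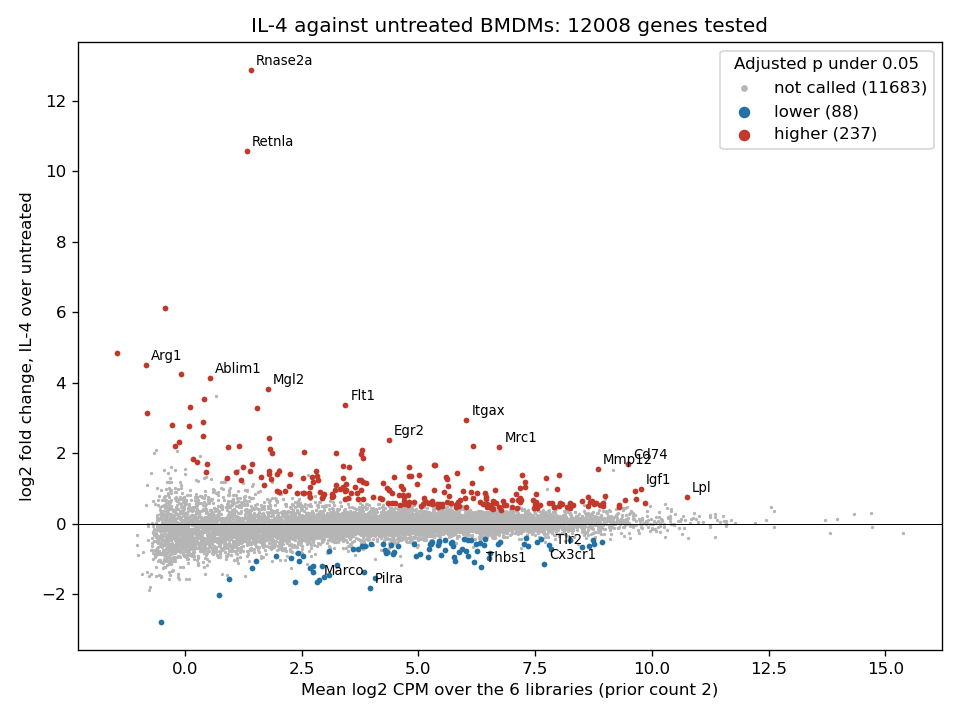
Each point is 1 of the 12008 genes tested, with the mean level over the 6 libraries on the horizontal axis (log2 CPM) and the log2 fold change of IL-4 over untreated on the vertical axis; red and blue points passed an adjusted p of 0.05. The 237 higher genes reach further from 0 than the 88 lower genes, and the heights of *Retnla* and *Rnase2a*, which had at most 1 count in an untreated library, depend on the prior count of the fit.

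The most marked rises were in genes that untreated cells hardly read. *Retnla* (ENSMUSG00000061100, chromosome 16 of mm10 from 48842551 to 48844461, + strand) encodes RELMα, a secreted cysteine-rich protein of type 2 immune responses. It had 0, 0 and 1 counts in the untreated libraries of mouse 1, 2 and 3 and 781, 535 and 618 counts with IL-4. Every IL-4 library thus lay far above every untreated one. The ratio of pooled counts, scaled by library size, was 2096 (adjusted p = 1.1e-06, edgeR's quasi-likelihood test). Its exact 95% counting interval from 376 to 82845 covers counting error only, not variation between mice. *Rnase2a* (ENSMUSG00000047222, chromosome 14 from 51255262 to 51256112, − strand), a member of the eosinophil-associated ribonuclease family, had 0 counts in all 3 untreated libraries and 1413, 575 and 683 with IL-4. Mouse 1 had the highest value with IL-4, and the rise was at least 315-fold against a floor of 3 counts per library (adjusted p = 9.9e-06, edgeR). The related *Ear2* went from a mean of 0.36 to 4.25 CPM (log2 fold change 3.55 ± 0.52 (SE), adjusted p = 0.007, edgeR).

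The 35 listed symbols of alternative activation markers gave 28 different genes with enough reads to test, of which 21 rose and 1 fell. The median log2 fold change was 1.41, against 0.002 over all genes. The median did not change when the 4 members at the floor in untreated cells (*Retnla*, *Rnase2a*, *Arg1* and *Cdh1*) were set to their bound or counting ratio. These markers are known from earlier work on IL-4, so their direction was given beforehand. The list was also drawn up with earlier results of these data known, so its counts and median are not independent of them. Without mouse 3, 14 of them were called higher. The mannose receptor *Mrc1*, which takes up glycoproteins, had 49.7, 36.8 and 68.7 CPM in untreated cells of mouse 1, 2 and 3 and 210, 196 and 278 CPM with IL-4. The lowest IL-4 value was above the highest untreated value, and the log2 fold change was 2.17 ± 0.11 (SE, adjusted p = 1.4e-05, edgeR). *Clec7a*, the β-glucan receptor Dectin-1 (annotated in GENCODE as a polymorphic pseudogene), had 181, 137 and 166 CPM without and 471, 408 and 389 CPM with IL-4 (log2 fold change 1.40 ± 0.10, adjusted p = 2.1e-04, edgeR).

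*Itgax*, the integrin αX chain (CD11c) found on dendritic cells and some macrophages, had 20.8, 25.5 and 24.7 CPM in untreated cells and 204, 179 and 159 CPM with IL-4. It rose in each mouse to a similar degree (log2 fold change 2.93 ± 0.13, adjusted p = 1.0e-05, edgeR). The related integrin gene *Itgad* shares most of the 8.02% of *Itgax* 50-base stretches that are not unique. *Flt1*, which encodes VEGF receptor 1, went from 4.79, 2.99 and 2.45 CPM to 41.4, 30.2 and 32.3 CPM (log2 fold change 3.36 ± 0.16, adjusted p = 1.2e-05, edgeR). *Mgl2*, a galactose-binding C-type lectin (CD301b), went from 0.780, 0.844 and 0.903 CPM to 12.3, 11.1 and 12.3 CPM. Its log2 fold change was 3.81 ± 0.20 (adjusted p = 2.2e-05, edgeR), although 13.1% of the 50-base stretches in its transcripts also occur in other genes, mostly its neighbour *Clec10a*. *Clec10a* itself (CD301a) had a log2 fold change of 0.53 ± 0.12 and just missed the threshold (adjusted p = 0.05, edgeR).

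Other members of the list rose less. *Chil3*, the chitinase-like protein Ym1, had a mean of 14.7 ± 2.0 CPM (SD, n = 3) in untreated and 28.7 ± 1.96 CPM with IL-4 (log2 fold change 0.97). *Tfrc*, the transferrin receptor, went from 31.6 ± 11.8 to 77.9 ± 12.2 CPM (1.34), and *Fn1*, fibronectin, from 4.64 ± 1.99 to 11.4 ± 2.32 CPM (1.35). *F13a1*, the A chain of coagulation factor XIII, is often used as a marker of alternative activation but fell from 62.4 ± 14.2 to 37.2 ± 8.08 CPM (log2 fold change -0.75 ± 0.11, adjusted p = 0.0059, edgeR). The call of *F13a1* was lost without the mouse block (adjusted p = 0.056, edgeR) and without mouse 3 (adjusted p = 0.18, edgeR), and without mouse 3 those of *Chil3* (0.15) and *Fn1* (0.19) were lost as well. Members with levels that did not pass the test were *Tgm2* (transglutaminase 2, log2 fold change 0.22), *Il10* (-0.15), *Il1rn* (0.43), *Cd163* (0.16) and *Plin2* (0.22).

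**Figure D2:**
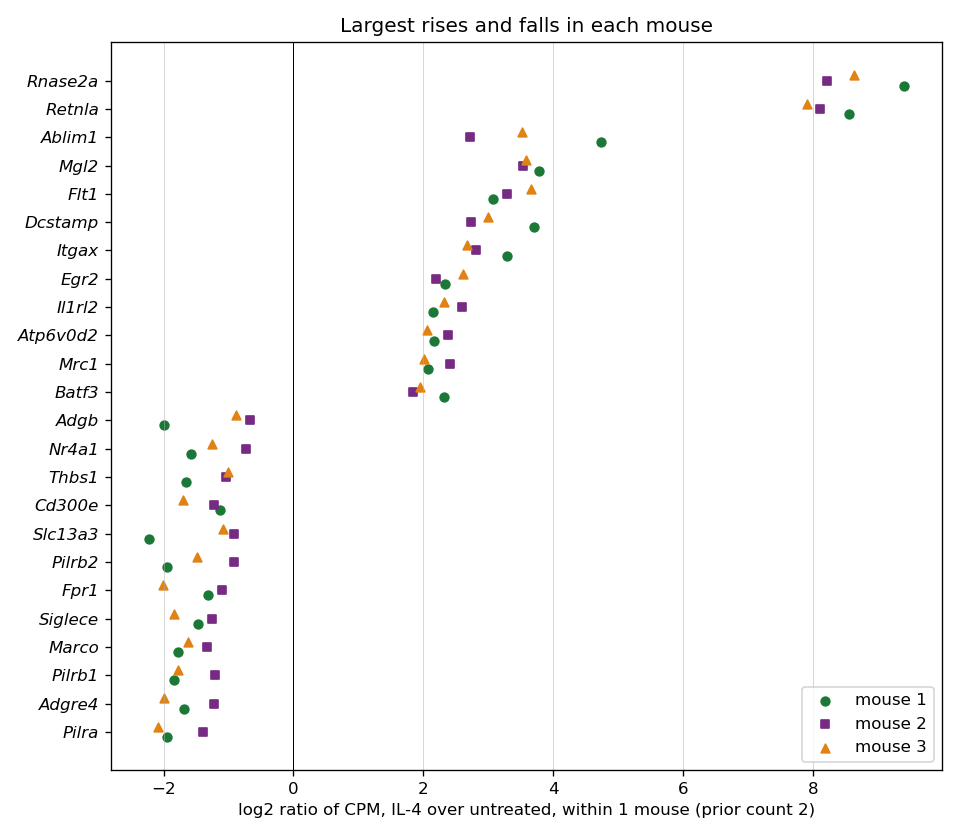
Each row is 1 of the 12 largest rises and 12 largest falls by the rule for named genes, and the points give the log2 ratio of IL-4 over untreated CPM within mouse 1, 2 and 3 (prior count of 2). All points of a gene lie on the same side of 0, as that rule requires, and *Ablim1*, *Adgb* and *Slc13a3* show the widest spread between mice.

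STAT6 dimers bind the palindrome TTCNNNNGAA, in which N is any base, so the 300 bases around the starts of the genes that rose were searched for it. RefSeq windows on GRCm38.p6 (from 250 bases before to 50 after the start) were matched for 183 of the 237 higher genes, of which 15 (8.20%) held the site, and for 61 of the 88 lower genes, of which 3 (4.92%) did. It was held by 6.64% of the 9245 tested genes with a window and by 8.01% of all 27025 genes with one, and 9.55% of the latter held the same half-sites with a spacer of 3 bases, TTCNNNGAA, which other STAT proteins prefer. Both words read the same on both strands, and a match to one cannot begin at the same base as a match to the other, although they can overlap. A comparison of these shares is void, because too many genes lacked a window. Among the named called genes 53 had a window, and 7 higher genes and 1 lower gene (*Nlrp3*) held the site. The windows of other strong risers, such as *Rnase2a*, *Mgl2*, *Flt1*, *Egr2* and *Mrc1*, held 0 sites. The windows of *Retnla* (chr16:48842359-48842658, + strand), *Itgax* (chr7:128129300-128129599, + strand) and *Clec7a* (chr6:129472730-129473029, − strand) are shown as examples picked from the genes that rose and hold a site. They are written 5′ to 3′ with the site in capitals, and the match is a description of these letters, not evidence of binding.
Retnla: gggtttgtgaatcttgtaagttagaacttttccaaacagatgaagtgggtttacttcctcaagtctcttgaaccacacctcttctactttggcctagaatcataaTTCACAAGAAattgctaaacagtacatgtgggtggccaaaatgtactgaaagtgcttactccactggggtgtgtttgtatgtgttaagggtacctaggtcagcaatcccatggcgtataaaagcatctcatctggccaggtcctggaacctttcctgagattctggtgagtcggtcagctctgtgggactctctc
Itgax: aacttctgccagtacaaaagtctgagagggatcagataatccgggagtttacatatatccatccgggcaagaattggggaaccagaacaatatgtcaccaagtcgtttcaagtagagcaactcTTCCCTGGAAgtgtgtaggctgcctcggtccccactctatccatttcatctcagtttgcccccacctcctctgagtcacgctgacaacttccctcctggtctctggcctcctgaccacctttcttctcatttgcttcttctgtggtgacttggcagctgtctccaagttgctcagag
Clec7a: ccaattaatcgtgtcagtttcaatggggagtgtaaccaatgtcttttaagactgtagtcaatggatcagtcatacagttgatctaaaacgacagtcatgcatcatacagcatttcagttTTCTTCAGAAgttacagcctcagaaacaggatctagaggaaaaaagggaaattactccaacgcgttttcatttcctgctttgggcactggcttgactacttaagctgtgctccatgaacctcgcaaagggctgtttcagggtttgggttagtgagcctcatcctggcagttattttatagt
The site begins 145 bases before the start in *Retnla*, 127 bases before it in *Itgax* and 131 bases before it in *Clec7a*. The letters of the spacer differ among the 3 windows.

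Of 19 tested transcription factors tied to alternative activation, 9 rose and 1 fell (median log2 fold change 0.46). *Egr2*, a zinc-finger factor, went from 9.13, 10.6 and 7.29 CPM to 46.5, 48.8 and 45.4 CPM, with no overlap (log2 fold change 2.39 ± 0.13, adjusted p = 2.8e-05, edgeR). *Irf4*, an interferon regulatory factor known for its part in alternative activation, went from 4.57, 4.94 and 4.26 CPM to 21.7, 17.6 and 16.7 CPM (2.02 ± 0.15, adjusted p = 2.1e-04, edgeR). *Nfil3*, a basic leucine zipper factor, went from 16.4, 14.3 and 17.0 CPM to 56.2, 44.6 and 45.2 CPM (1.61 ± 0.12). All of these kept their call with any mouse left out.

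*Batf3*, another leucine zipper factor and one required by some dendritic cells, went from 1.28, 2.01 and 1.61 CPM to 6.91, 7.55 and 6.61 CPM (log2 fold change 2.11 ± 0.21, adjusted p = 0.0011, edgeR). The nuclear receptor *Pparg*, a regulator of lipid genes, had a mean of 51.2 ± 3.58 CPM (SD, n = 3) in untreated and 96.7 ± 7.21 CPM in IL-4-treated cells (0.92 ± 0.10). *Klf4* (7.37 to 16.4 CPM), *Myc* (12.4 to 21.1 CPM), *Atf3* (395 to 572 CPM) and *Ppargc1b* (3.12 to 6.00 CPM) also rose, but were not called without mouse 3 (adjusted p = 0.14, 0.43, 0.39 and 0.42, edgeR). *Maf*, a lineage factor of macrophages, fell from 272 ± 20.1 to 182 ± 33.0 CPM (-0.59 ± 0.10, adjusted p = 0.015, edgeR) and was not called without mouse 3 (0.16), and *Kdm6b* (log2 fold change -0.24) and *Cebpb* (0.08) did not pass.

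Of 15 tested genes of the pathway that carries the IL-4 signal, edgeR's quasi-likelihood test called 0 (2 at an unadjusted p under 0.05), as did DESeq2, in a comparison that called 2.71% of all genes, and the log2 fold changes lay between -0.30 and 0.44. The receptor α chain *Il4ra* had 138, 167 and 167 CPM in untreated and 139, 124 and 135 CPM in IL-4-treated cells, so it was nearly equal in mouse 1 and lower in mice 2 and 3 (log2 fold change -0.24 ± 0.11, adjusted p = 0.39, edgeR). *Stat6* had 343, 394 and 378 CPM against 379, 366 and 336 CPM, which overlap. *Stat3*, the mediator of IL-6 and IL-10 signals, had a log2 fold change of -0.02 ± 0.10 (adjusted p = 0.97, edgeR), which was 0.03 without mouse 3.

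The suppressors of cytokine signaling (SOCS), which block cytokine receptors and their kinases, gave 0 calls in 8 tested genes (2 at an unadjusted p under 0.05) by edgeR and by DESeq2. The edgeR fit called 2.71% of all genes, so 0 of 8 is near that share and is not a result about these genes. Their log2 fold changes were above 0 in 7 of the 8, with a median of 0.21. *Socs1* had 2.23, 1.49 and 1.48 CPM in untreated and 3.48, 3.15 and 3.34 CPM in IL-4-treated cells. All IL-4 values were above all untreated values, and the log2 fold change of 0.94 ± 0.25 did not pass (adjusted p = 0.098, edgeR). *Socs1* passed without mouse 1 (adjusted p = 0.02, edgeR) and where all genes with at least 1 count were tested (adjusted p = 0.0096, edgeR). *Socs3* had a log2 fold change of -0.19 ± 0.15 (adjusted p = 0.7, edgeR).

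Genes of arginine and polyamine metabolism gave 4 higher and 0 lower calls among 18 tested, with a median log2 fold change of 0.14. *Arg1*, which turns arginine into ornithine and urea, was near the floor of detection. It had 0, 2 and 1 counts in untreated cells and 26, 26 and 19 with IL-4 (adjusted p = 0.0053, edgeR). The ratio of pooled counts, scaled by library size, was 25.7, with an exact 95% counting interval from 8.43 to 127. Even with IL-4 the level of *Arg1* was 1.59, 1.71 and 1.41 CPM, and the call was lost without mouse 3 (adjusted p = 0.06, edgeR). The cationic amino acid transporter *Slc7a2*, which brings arginine into the cell, went from 8.58, 5.72 and 5.81 CPM to 26.5, 30.3 and 28 CPM (log2 fold change 2.09 ± 0.17, adjusted p = 3.4e-04, edgeR). *Gatm*, which moves the amidino group of arginine to glycine on the way to creatine, went from 24.8, 19.6 and 24.3 CPM to 63.3, 72.7 and 84.9 CPM (1.68 ± 0.13, adjusted p = 2.1e-04, edgeR).

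*Arg2*, the mitochondrial arginase, was higher in the 3 mice (5.39 ± 0.591 to 10.3 ± 3.42 CPM, SD, n = 3), a call that was lost without the mouse block (adjusted p = 0.055, edgeR) and without mouse 3 (0.23). Of the exon bases of *Arg2*, 28.1% overlap a gene on the other strand, whose reads may not be told apart. The listed genes of the polyamine pathway proper, such as *Odc1* (log2 fold change 0.09), *Srm* (0.10), *Sms* (-0.13) and *Sat1* (0.14), did not pass the test. *Azin2*, a relative of the listed *Azin1*, was not on the list and was picked after its values were seen. It rose from a mean of 2.32 to 6.62 CPM (1.51 ± 0.21, adjusted p = 0.0059, edgeR), but was not called without mouse 3 (0.13).

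Genes of MHC class II antigen presentation rose with IL-4. Of 12 tested, 7 rose and 0 fell, with a median log2 fold change of 0.81, and 5 of the 7 were called without mouse 3. *Cd74*, the invariant chain that guides class II molecules to endosomes, had 426, 374 and 404 CPM in untreated and 1433, 1362 and 1122 CPM in IL-4-treated cells. No values overlapped, and the log2 fold change was 1.70 ± 0.12 (adjusted p = 1.5e-04, edgeR). The chains of the class II molecules lie side by side on chromosome 17 between 34257689 and 34316674, where *H2-Ab1* (109, 102 and 99.2 CPM against 246, 266 and 204 CPM), *H2-Aa* (119, 104 and 103 against 213, 269 and 196) and *H2-Eb1* (74.1, 71.1 and 68.4 against 130, 160 and 130) rose together. Their log2 fold changes were 1.20, 1.05 and 0.97.

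*H2-DMa* and *H2-DMb1*, whose product loads peptides, rose by 1.07 ± 0.10 and 0.64 ± 0.11 on the log2 scale. *Ciita*, the transcriptional coactivator that class II genes need, had 15.9, 13.3 and 13.1 CPM in untreated and 33.0, 29.0 and 24.7 CPM in IL-4-treated cells (1.03 ± 0.12, adjusted p = 0.0022, edgeR), and without mouse 3 neither *Ciita* (adjusted p = 0.069, edgeR) nor *H2-DMb1* (0.27) was called. The cathepsin *Ctss* (0.37), *Ifi30* (0.31) and *H2-Ob* (-1.03, at a mean of at most 1.00 CPM) did not pass. Over 10 markers of dendritic cells, which also carry class II molecules, the summed level was between 3.94 and 4.68 CPM in untreated and between 9.73 and 11.0 CPM in IL-4-treated cells. *Batf3* made up 7.02 CPM of the latter mean, and *Zbtb46* (0.746 CPM), *Flt3* (0.175 CPM), *Xcr1* (0.213 CPM) and *Clec9a* (0.226 CPM) stayed under 1 CPM, while 8 of the 10 markers had too few counts to test.

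**Figure D3:**
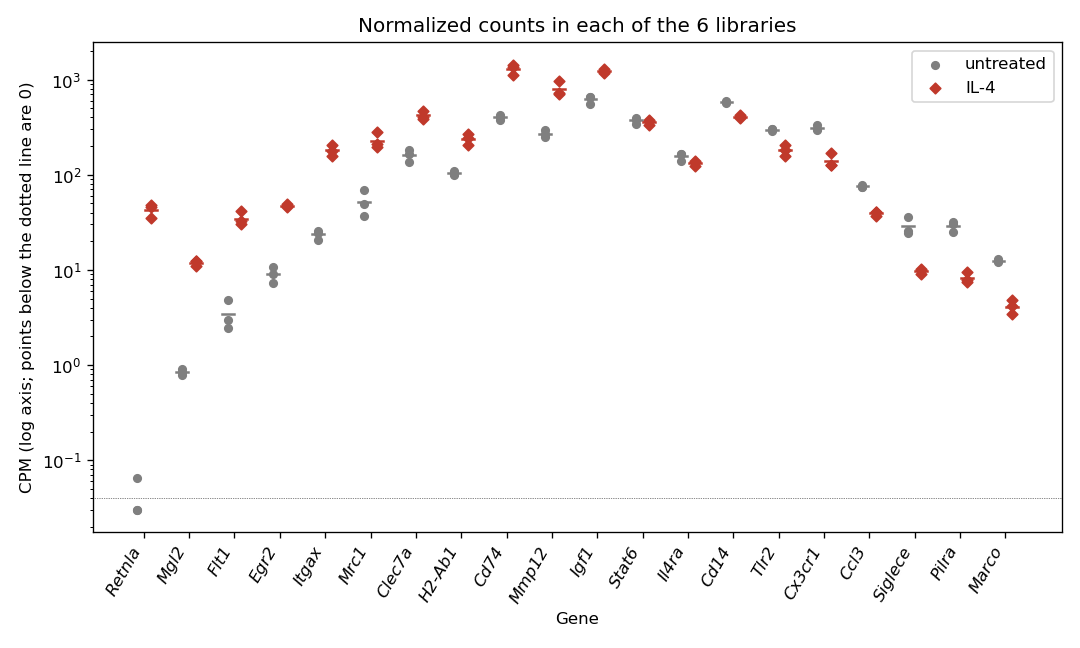
Each point is the CPM (log axis) of 1 gene in 1 library, grey circles for untreated and red diamonds for IL-4, with bars at the means of 3 mice; points below the dotted line are 0. *Stat6* and *Il4ra* overlap between the groups, while the genes from *Retnla* to *Igf1* rise and those from *Cd14* to *Marco* fall without overlap.

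C-type lectins and scavenger receptors, which bind sugars, lipids and modified proteins, moved in both directions: of 22 tested, 4 rose and 3 fell (median log2 fold change -0.05). Beside *Mrc1*, *Mgl2* and *Clec7a*, the fatty acid and lipoprotein receptor *Cd36* rose from 143, 106 and 168 CPM to 299, 352 and 358 CPM (1.29 ± 0.14, adjusted p = 0.0013, edgeR). *Marco*, a scavenger receptor for bacteria and particles, fell from 12, 12.3 and 13.1 CPM to 3.42, 4.79 and 4.16 CPM (-1.60 ± 0.17, adjusted p = 0.0011, edgeR). *Clec4n*, the receptor Dectin-2, fell from 93.7, 99.5 and 129 CPM to 49.6, 45.5 and 56.2 CPM (-1.08 ± 0.10, adjusted p = 5.1e-04, edgeR). Dectin-1 and Dectin-2 thus moved in opposite directions in all 3 mice. The neighbour of *Clec4n*, *Clec4a2*, fell as well (-0.63 ± 0.13) but not without mouse 3 (adjusted p = 0.41, edgeR).

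Paired and inhibitory surface receptors, which tune the activity of myeloid cells, gave 3 higher and 6 lower calls among 28 tested (median log2 fold change -0.07). The largest fall among genes averaging 5 CPM or more in untreated cells was that of *Pilra* (ENSMUSG00000046245, chromosome 5 from 137821952 to 137836281), an inhibitory receptor with an immunoglobulin-like domain, with 30.6, 24.9 and 31.9 CPM in untreated and 7.82, 9.45 and 7.43 CPM in IL-4-treated cells (-1.82 ± 0.16, adjusted p = 4.8e-04, edgeR). Its activating partners *Pilrb1* (-1.65 ± 0.20) and *Pilrb2* (-1.45 ± 0.20) lie beside it and fell too. Of the 50-base stretches of these genes, 7.57%, 30.1% and 29.2% also occur in another gene, mostly in each other, so the falls of *Pilrb1* and *Pilrb2* may in part share reads, while most stretches of *Pilra* are its own. *Pilra* was called with any mouse left out, and *Pilrb1* and *Pilrb2* were not called without mouse 3 (adjusted p = 0.067 and 0.1, edgeR).

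*Siglece*, an inhibitory receptor for sialic acid, fell from 25.5, 24.7 and 36.1 CPM to 9.11, 10.3 and 10.0 CPM (-1.53 ± 0.15, adjusted p = 8.4e-04, edgeR). The adhesion receptor *Adgre4* (12.9 ± 4.26 to 4.03 ± 1.16 CPM, SD, n = 3) and *Cd300e* (22.6 ± 2.69 to 8.80 ± 1.07 CPM) fell to a similar degree (-1.66 and -1.36). In the other direction, *Fcgr2b*, the inhibitory receptor for IgG, rose from 52.7, 42.7 and 44.6 CPM to 149, 134 and 136 CPM (1.58 ± 0.09, adjusted p = 3.3e-05, edgeR). *Siglecf*, a sialic acid receptor known from eosinophils and alveolar macrophages, rose from a mean of 0.491 to 2.85 CPM (2.49 ± 0.38, adjusted p = 0.0085, edgeR). Among 11 markers of mast cells, basophils and eosinophils, *Fcer1a*, *Il13* and *Mcpt4* had 0 counts in all 6 libraries. Of these markers 4 were tested, with 0 called by edgeR (2 at an unadjusted p under 0.05) or DESeq2, while edgeR called 2.71% of all genes. Their summed level was 6.95 to 8.97 CPM in untreated and 6.72 to 8.32 CPM in IL-4-treated cells, over all 11 markers.

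Of 14 tested receptors that guide cell movement, 1 rose and 3 fell (median log2 fold change 0.08). *Cx3cr1*, the receptor of fractalkine, had 331, 302 and 298 CPM in untreated and 168, 126 and 128 CPM in IL-4-treated cells (-1.15 ± 0.10, adjusted p = 3.8e-04, edgeR). *Cxcr3*, a chemokine receptor best known on T cells, went from 13.4, 14.6 and 14.7 CPM to 6.42, 6.95 and 5.50 CPM (-1.18 ± 0.15, adjusted p = 0.0038, edgeR). Over 12 markers of T and NK cells, the summed level was 4.29 to 4.84 CPM in untreated and 2.32 to 3.61 CPM in IL-4-treated cells, nearly all of it from *Cd4* (log2 fold change -0.90), the only one tested and not called, and *Cd8a*, *Gzma*, *Gzmb*, *Ncr1* and *Trac* had 0 counts in all 6 libraries. *Fpr1*, the receptor for bacterial formyl peptides, fell from 12.4, 9.16 and 19.5 CPM to 4.89, 4.20 and 4.75 CPM (-1.51 ± 0.20), and *Ccr1* rose from 2.84, 1.82 and 2.39 CPM to 5.74, 6.69 and 6.31 CPM (1.41 ± 0.23). *Cxcr3*, *Fpr1* and *Ccr1* were not called without mouse 3 (adjusted p = 0.1, 0.081 and 0.16, edgeR).

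Of 17 tested chemokine ligands, 2 rose and 2 fell (median log2 fold change -0.17). *Ccl3* and *Ccl4*, neighbours on chromosome 11 that encode chemokines of inflammation, fell from 78.4, 75.0 and 74.1 CPM to 36.5, 40.5 and 40.8 CPM (-0.95 ± 0.10, adjusted p = 0.0013, edgeR) and from 53.4, 49.8 and 49.2 CPM to 22.6, 29.5 and 28.5 CPM (-0.93 ± 0.13, adjusted p = 0.0053, edgeR). *Ccl22*, a ligand of CCR4 typical of type 2 responses, rose from 0.446, 0.260 and 0.323 CPM to 2.44, 3.81 and 1.26 CPM (2.77 ± 0.41, adjusted p = 0.0081, edgeR). *Ccl17*, the other CCR4 ligand, had too few counts to test (0 in the 3 untreated libraries and at most 0.550 CPM with IL-4). *Ccl9* rose from a mean of 537 to 748 CPM (0.48 ± 0.10), a call lost without the mouse block (adjusted p = 0.062, edgeR) and without mouse 2 (0.18) or mouse 3 (0.57). *Ccl4* was not called without mouse 3 (adjusted p = 0.079, edgeR).

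Of 28 tested Toll-like receptor and NF-κB genes, 1 rose and 5 fell (median log2 fold change 0.00), and 0 were called without mouse 3. *Tlr2*, the receptor for bacterial lipoproteins, had 299, 286 and 300 CPM in untreated and 203, 180 and 159 CPM in IL-4-treated cells (-0.71 ± 0.10, adjusted p = 0.0064, edgeR). *Cd14*, which binds lipopolysaccharide, went from 576, 595 and 572 CPM to 419, 405 and 398 CPM (-0.51 ± 0.10, adjusted p = 0.025, edgeR). *Tlr9* (-0.57), *Irak3* (-0.54) and *Nfkbiz* (-0.51) fell as well, and *Tlr8* rose (0.83 ± 0.15). Of 17 tested inflammatory cytokines and enzymes, 3 rose (the matrix metalloproteinases *Mmp9*, *Mmp12* and *Mmp13*) and 2 fell (*Nlrp3* and *Mmp14*), with a median log2 fold change of -0.26. The call of *Mmp9* was lost without mouse 2 (adjusted p = 0.095, edgeR), without mouse 3 (0.39) and in DESeq2 (0.18). *Nlrp3*, the sensor of an inflammasome, fell from 105, 97.2 and 94.1 CPM to 57.1, 57.9 and 60.2 CPM (-0.75 ± 0.09, adjusted p = 0.003, edgeR), and was not called without mouse 3 (0.06). *Cd14* was not called without mouse 2 (adjusted p = 0.088, edgeR) or mouse 3 (0.41), and *Tlr2* not without mouse 3 (0.18). The cytokine *Tnf* had a mean of 25.4 CPM in both groups, and *Il1b* went from 21.7 to 17.8 CPM (adjusted p = 0.57, edgeR).

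Among 38 tested genes from a list of interferon-stimulated genes, edgeR called 0, against 2.71% of all genes. At an unadjusted p under 0.05, 14 of the 38 were lower and 0 higher (edgeR). DESeq2 called 1 of them lower. The median log2 fold change was -0.29, and 34 of the 38 were below 0. The mice differed in this list. *Ifit3*, an antiviral protein, had 34.4, 15.8 and 23.9 CPM in untreated and 9.47, 16.1 and 11.0 CPM in IL-4-treated cells of mouse 1, 2 and 3, so it was lower in mice 1 and 3 and nearly equal in mouse 2 (-0.99 ± 0.29, adjusted p = 0.15, edgeR). Without mouse 2, 19 of the genes were called lower, without mouse 1 2 and without mouse 3 0. *Ifit1bl1*, a gene of the *Ifit* family that was not on the list, was picked after its values were seen. It was called lower, with a mean of 3.16 CPM in untreated and 0.765 CPM in IL-4-treated cells (-2.02 ± 0.29, adjusted p = 0.0068, edgeR). That call was lost without mouse 3 (adjusted p = 0.095, edgeR).

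Secreted proteases and growth factors of tissue repair gave 7 higher and 2 lower calls among 24 tested (median log2 fold change 0.32). Without mouse 3, 1 of the higher genes (*Mmp12*) and the lower gene *Thbs1* (adjusted p = 0.016, edgeR) were called. The macrophage elastase *Mmp12* had 292, 248 and 271 CPM in untreated and 965, 721 and 704 CPM in IL-4-treated cells (1.55 ± 0.11, adjusted p = 1.6e-04, edgeR). The collagenases *Mmp13* (6.62 ± 0.433 to 16.5 ± 3.60 CPM, SD, n = 3) and *Mmp8* (20.4 ± 7.15 to 33.7 ± 5.20 CPM), which flank it on chromosome 9, rose too. The values of *Mmp8*, which is also a marker of neutrophils, overlapped between the groups. Of 13 neutrophil markers 7 were tested, *Mmp8* was the only one called, and their summed level was 245 to 298 CPM in untreated and 247 to 299 CPM in IL-4-treated cells. *Igf1*, insulin-like growth factor 1, rose from 648, 558 and 658 CPM to 1163, 1214 and 1290 CPM (0.98 ± 0.11, adjusted p = 0.0018, edgeR). *Thbs1*, the matrix protein thrombospondin 1, fell from 126, 109 and 139 CPM to 40.0, 53.2 and 69.1 CPM (-1.23 ± 0.13, adjusted p = 0.0014, edgeR), and *Mmp14*, a protease anchored in the membrane, fell from 62.6 to 43.8 CPM (-0.51 ± 0.10). Without mouse 3 the adjusted p was 0.059 for *Mmp13*, 0.43 for *Mmp8*, 0.078 for *Igf1* and 0.49 for *Mmp14* (edgeR).

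Of 24 tested genes of lipid handling, 3 rose and 0 fell (median log2 fold change 0.17). Beside *Cd36*, these were lipoprotein lipase *Lpl*, with 1264, 1219 and 1509 CPM in untreated and 1831, 2385 and 2550 CPM in IL-4-treated cells (0.75 ± 0.13, adjusted p = 0.015, edgeR), and the cholesterol exporter *Abcg1*, with a mean of 247 and 371 CPM (0.59 ± 0.11). *Lpl* gained 924 CPM and *Cd74* 904 CPM, more than any other called gene, in a ranking by reads that also depends on transcript length. Of 25 tested genes of cholesterol and fatty acid synthesis (median log2 fold change 0.20), only the desaturase *Scd2* passed (0.71 ± 0.12). Without mouse 3 the adjusted p was 0.31 for *Lpl*, 0.23 for *Abcg1* and 0.41 for *Scd2*, and without mouse 2 it was 0.14 for *Lpl* (edgeR).

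Among 19 tested genes of prostaglandin and leukotriene metabolism, 4 rose and 1 fell (median log2 fold change -0.09). *Ptgs1*, the constitutive cyclooxygenase, had 34.9, 32.1 and 37.2 CPM in untreated and 81.5, 103 and 97.9 CPM in IL-4-treated cells (1.43 ± 0.11, adjusted p = 2.6e-04, edgeR). The inducible *Ptgs2* was near 1 CPM in both groups (0.803 and 1.10 CPM, adjusted p = 0.71, edgeR), and *Ptges*, which makes prostaglandin E2, had 3.08 and 2.25 CPM (adjusted p = 0.53, edgeR). *Hpgd*, which breaks prostaglandins down, had 191, 159 and 164 CPM in untreated and 134, 134 and 114 CPM in IL-4-treated cells. These values did not overlap, but the log2 fold change of -0.43 ± 0.10 missed the threshold (adjusted p = 0.053, edgeR) and passed it without the mouse block (adjusted p = 0.043, edgeR) and in DESeq2 (0.015). The thromboxane synthase *Tbxas1* (0.45 ± 0.09) and the receptors for prostacyclin, *Ptgir* (0.62 ± 0.12), and for prostaglandin E2, *Ptger2* (0.54 ± 0.12), also rose, and *Pla2g7*, which cleaves platelet-activating factor, fell (-0.56 ± 0.11). Without mouse 3 these had an adjusted p of 0.57, 0.54, 0.52 and 0.58 (edgeR).

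Of 34 tested genes of DNA replication and mitosis, 8 rose and 0 fell, with a median log2 fold change of 0.53, and 33 of the 34 were above 0. *Ccnd1*, the D-type cyclin that starts the cell cycle, had 22.8, 31.6 and 33.2 CPM in untreated and 43.1, 63.6 and 62.8 CPM in IL-4-treated cells (0.95 ± 0.10, adjusted p = 0.0013, edgeR). The replicative helicase subunits *Mcm5* (0.81 ± 0.11), *Mcm2* (0.60 ± 0.12) and *Mcm6* (0.56 ± 0.09), the ribonucleotide reductase *Rrm2* (1.19 ± 0.19) and the clamp *Pcna* (0.58 ± 0.09) rose. Without mouse 3 the adjusted p was 0.068 for *Ccnd1*, 0.19 for *Mcm5* and 0.24 for *Rrm2* (edgeR). For *Pcna*, 19.1% of the 50-base stretches also occur in a pseudogene copy. The proliferation marker *Mki67* had 22.4, 8.25 and 14 CPM in untreated and 18.6, 16.3 and 22.9 CPM in IL-4-treated cells, so it was lower with IL-4 in mouse 1 and higher in mice 2 and 3. Without mouse 3, 0 of the 34 genes were called, without mouse 1 16 were higher, and with scaling by total counts 3 were higher.

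*Ccnd1* and *Myc* were also the 2 genes that rose among 11 tested genes of a Wnt list (median log2 fold change 0.14). This list held Wnt receptors and β-catenin (*Ctnnb1*) as well as targets and feedback genes. The feedback genes *Axin2* and *Lef1*, which respond most directly to Wnt in many cells, had at most 2 counts in any library and were not tested. In other lists of cell types, *Ighm*, the heavy chain of IgM, fell from 79.9, 81.8 and 75.3 CPM to 31.9, 44.6 and 38 CPM (-1.06 ± 0.11, adjusted p = 0.0013, edgeR). The other B cell markers had means of 3.74 CPM or less, and *Pax5* had 0 counts in all 6 libraries. *Aif1* (IBA1), a macrophage marker, fell from 85.5 ± 13.2 to 50.3 ± 6.68 CPM (SD, n = 3) beside *Cd14*, while the other 10 macrophage markers did not pass (adjusted p without mouse 3 of 0.15 for *Aif1*, edgeR). *Pecam1*, an adhesion molecule of endothelium and of leukocytes, rose from 1.22 to 3.38 CPM (1.48 ± 0.29) but not in DESeq2 (adjusted p = 0.072) or without mouse 3 (adjusted p = 0.39, edgeR), with 12 stromal and endothelial markers summing to 32.4 to 42.2 CPM in untreated and 30.7 to 52.8 CPM in IL-4-treated cells. Of 10 erythroid and platelet markers 3 were tested and 0 were called by edgeR (1 at an unadjusted p under 0.05) or by DESeq2, while edgeR called 2.71% of all genes. Whether any of these cell type markers bears on the other results was not tested.

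**Figure D4:**
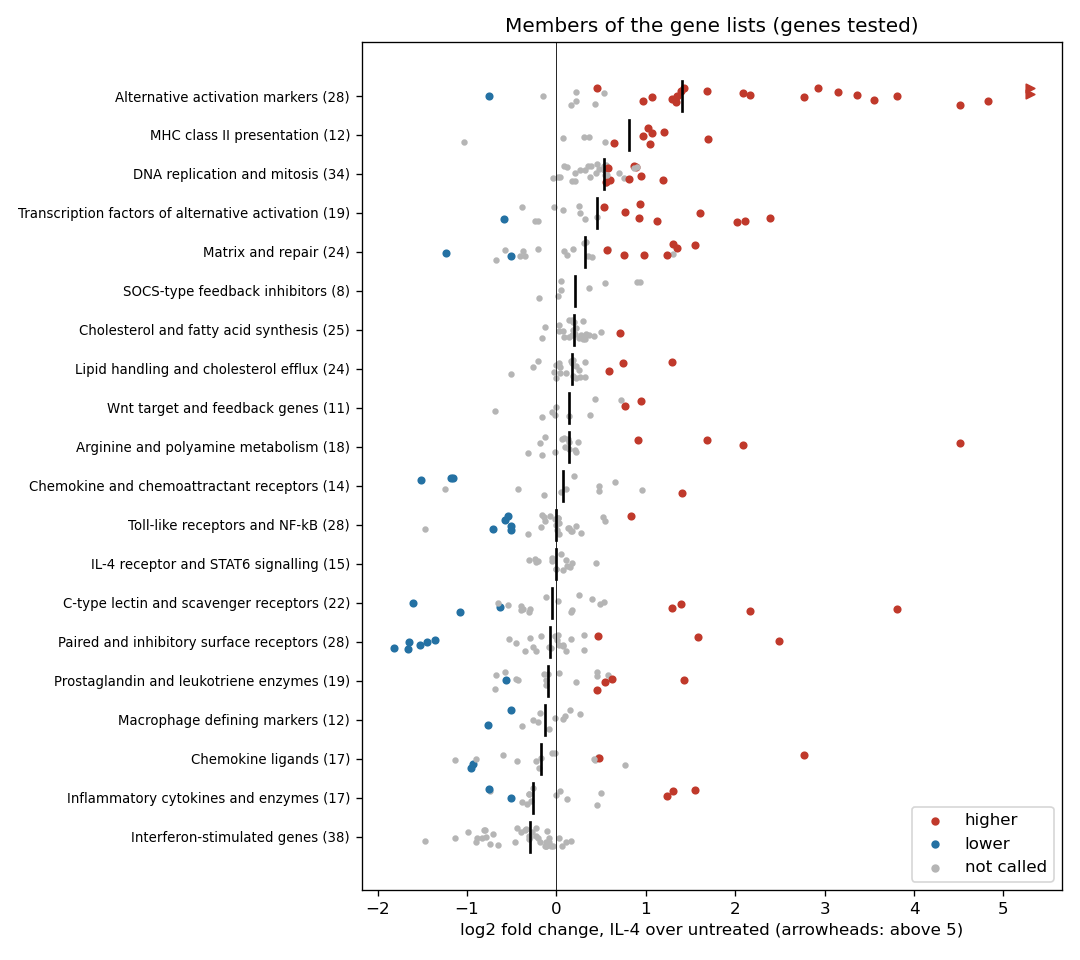
Each point is the log2 fold change of 1 tested gene in 1 of 20 gene lists, red or blue where it passed an adjusted p of 0.05, and black bars are list medians; the number of tested genes follows each name, and genes above 5 are drawn as arrowheads. The alternative activation markers (median 1.41) and the MHC class II genes (0.81) lie furthest to the right, and the interferon-stimulated genes (-0.29, 0 called) furthest to the left.

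Further named genes with large changes lay outside the lists. *Atp6v0d2*, a subunit of the vacuolar proton pump known from osteoclasts, had 32.1, 32.4 and 36.6 CPM in untreated and 145, 169 and 153 CPM in IL-4-treated cells (2.20 ± 0.10, adjusted p = 1.0e-05, edgeR). *Dcstamp*, a membrane protein needed for the fusion of osteoclasts and macrophages, went from 0.613, 1.49 and 0.645 CPM to 9.47, 10.7 and 6.02 CPM (3.28 ± 0.26, adjusted p = 2.6e-04, edgeR). Both were called with any mouse left out. *Il1rl2*, the receptor of IL-36, went from 1.89, 1.10 and 1.35 CPM to 8.86, 7.35 and 7.28 CPM (2.43 ± 0.21), and *Ablim1*, an actin-binding protein, from 0.293 ± 0.114 to 5.34 ± 2.22 CPM (SD, n = 3), with 4.15 ± 0.40 (SE) on the log2 scale. Falls outside the lists were those of the orphan nuclear receptor *Nr4a1* (11.5 ± 1.37 to 5.02 ± 0.906 CPM), the dicarboxylate transporter *Slc13a3* (10.9 ± 1.61 to 4.52 ± 2.37 CPM) and *Adgb*, a globin family gene (10.4 ± 5.33 to 4.17 ± 0.453 CPM). Mouse 1 had the highest untreated value of *Adgb*, 16.4 CPM against 6.11 and 8.77 CPM, and *Nr4a1*, *Slc13a3* and *Adgb* were not called without mouse 3 (adjusted p = 0.16, 0.13 and 0.18, edgeR).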

How the data were processed

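RNA from BMDMs of 3 mice was sequenced as single reads, and the authors deposited 1 table of raw gene counts for all samples. By the study's methods and the submitters' processing notes, the authors checked reads with FastQC 0.11.7, trimmed them (Trimmomatic 0.36), mapped to mm10 (STAR 2.6.0), handled the alignments with SAMtools 1.9 and counted reads per gene with HTSeq 0.11.1, and used DESeq2 1.24.0 for their own tests. The study's methods name UCSC genes for this step, whereas the table holds Ensembl identifiers. The annotation release, the strand setting and the treatment of reads with several matches are not given in the sources used here, so reads of a gene and of an overlapping gene on the other strand, or of near-identical copies, may not be told apart. Counts favour long transcripts, so levels were compared between samples, and a ranking of genes by CPM gained reflects transcript length too.

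Only the 3 untreated and 3 IL-4 columns were used, and no row lacked a gene identifier. Positions and biotypes came from GENCODE M21, which held 48144 of the 48526 identifiers. Symbols came from a separate reference of gene names, which gave a symbol for 48058 of them (99.0%). Genes that reached 10 counts in 3 or more of the 6 libraries were fitted with edgeR 4.0.16 in R 4.3.3 (TMM scaling, quasi-likelihood test, mouse and treatment as terms, residual df of 2), with Benjamini-Hochberg adjustment over all 12008 genes and a threshold of 0.05. Errors of log2 fold changes are standard errors of that fit, and its biological coefficient of variation was 11.8%. Plotted log2 CPM and ratios within a mouse used a prior count of 2. Where no library of a group held more than 3 counts of a gene, its counts were given, with a ratio and its exact interval or a bound. The ratio pools the libraries of each group, so its interval leaves out variation between mice. The labels give both libraries of a number the same mouse, so mouse was a block; the deviations of same-mouse libraries from their group means correlated at -0.22, 0.04 and 0.20, against -0.33 to 0.27 for libraries of different mice.

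The genes named with values were, among genes called with 1 direction in 3 of 3 mice and averaging 5 CPM or more in whichever group was higher, the 12 largest rises and falls and the 5 smallest p-values in each direction, then up to 4 called members of each gene list, and genes that the study measured in cultured macrophages. Other members of a list were named to describe it after their values were seen. The comparison, the lists and the named genes were chosen with earlier results of these data known. Shared stretches of 50 bases were counted between GENCODE transcripts, and promoter windows were those of RefSeq on GRCm38.p6, with Python 3.11.15. The alternatives were a fit without the block, DESeq2 1.42.0, other scalings, filters, depths and thresholds, and leaving out both libraries of each mouse. The scripts were tested on simulated data.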

Additional observations from a re-analysis of the deposited data

How the results depend on the processing

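None of the 71 named genes that were called changed direction under any alternative that was run; of the others, *Stat3* went from -0.02 to 0.03 (log2 fold change) without mouse 3. Without the mouse block 407 genes were called, of which 299 were among the 325, and of the 71 named genes that were called only *Slc13a3*, *Adgb*, *Arg2*, *Ccl9* and *Mmp8* were lost and *Hpgd* was gained. DESeq2 called 362 genes, its size factors within edgeR gave 318, a filter of 1 CPM gave 317 and thinning to the smallest library 353. Scaling by total counts gave 149 higher genes, with 13 of the 71 named genes lost. Testing all genes with at least 1 count gave 694 calls (425 higher, 269 lower). An adjusted p under 0.01 left 135 (106 higher, 29 lower), and a log2 fold change of at least 1 left 119 (96 higher, 23 lower). Leaving out 1 mouse gave from 65 to 1025 calls, from 53 to 702 higher and from 12 to 323 lower, the fewest without mouse 3 and the most without mouse 1. Without mouse 2 the lower calls (301) outnumbered the higher calls (269). Of the 71 named genes, 35 were lost without mouse 3, 3 (*Ccl9*, *Lpl* and *Cd14*) without mouse 2 and 0 without mouse 1, and the residual df fell with each mouse left out. Each of these fits also estimated its own variances, so their counts are not on 1 scale. Why the fewest genes were called without mouse 3 was not tested. At this depth, 3 counts were 0.167 to 0.223 CPM, so changes of genes under that level were not detectable.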

Other observations

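Other called genes, chosen here after their values were seen, formed small groups with a known common role. Protein disulfide isomerases fold secreted proteins in the endoplasmic reticulum, and only those with a *Pdia* symbol were counted here. Of the 4 tested, *Pdia3* (mean 415 to 591 CPM), *Pdia4* (80.6 to 110 CPM) and *Pdia6* (181 to 276 CPM) rose and *Pdia5* had a log2 fold change of 0.20. None of the 3 was called without mouse 3 (adjusted p = 0.38, 0.4 and 0.27, edgeR), and *Pdia3* not without mouse 2 (0.2). Of 9 tested annexins, which bind membranes in the presence of calcium, *Anxa1* (540 ± 37.3 to 875 ± 126 CPM, SD, n = 3), *Anxa2* (523 ± 38.4 to 757 ± 52.6 CPM) and *Anxa4* (406 ± 19.5 to 609 ± 35.8 CPM) rose, while the family's median log2 fold change was 0.09. Without mouse 3 the adjusted p was 0.17, 0.41 and 0.37 (edgeR), and without mouse 2 it was 0.06 for *Anxa2*.

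Coagulation factor X, *F10*, had 8.97, 7.40 and 5.87 CPM in untreated and 39.4, 21.5 and 22.4 CPM in IL-4-treated cells (log2 fold change 1.88 ± 0.15, adjusted p = 3.2e-04, edgeR), and its neighbour *F7*, which encodes factor VII, rose too (1.40 ± 0.19). Complement *C3* rose from 524, 510 and 713 CPM to 1302, 1067 and 981 CPM (0.95 ± 0.16, adjusted p = 0.015, edgeR). *Egr1* fell from 9.41, 11.4 and 9.35 CPM to 4.03, 4.99 and 4.08 CPM (-1.20 ± 0.16, adjusted p = 0.0043, edgeR), the opposite direction to its relative *Egr2*, while *Nab2*, which binds and represses EGR proteins, rose (0.89 ± 0.10). Without mouse 3, *Egr1* (adjusted p = 0.089, edgeR), *Nab2* (0.099) and *F7* (0.12) were not called. For *Nab2*, 42.2% of the exon bases overlap a gene on the other strand, which cannot be told apart without the strand setting. Of the integrins, the β3 chain *Itgb3* rose (14.0 to 35.3 CPM) and the αL chain *Itgal* fell (498 to 322 CPM), the latter not without mouse 3 (adjusted p = 0.3, edgeR).

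Of the 325 called genes, 53 lay next to another called gene in the order of tested genes along a chromosome, with untested genes between them passed over. They formed 23 runs, of which 18 had 1 direction. As 237 of the 325 called genes were higher, that number of runs with 1 direction is not read as a result. The runs included the closely related cytokine receptor chains *Csf2rb2* and *Csf2rb*, which may share reads, the ligands of PD-1 *Cd274* and *Pdcd1lg2*, and the transcription factors *Batf3* and *Atf3*. Of these 6 genes only *Batf3* was called without mouse 3 (adjusted p = 0.022, edgeR). How many runs would arise among genes at random was not tested.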
